A study of Homo sapiens with 6 samples.

Results

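Interferon response genes were followed in RPMI-8402, a human line from T-cell leukaemia of the acute lymphoblastic kind, after guides against MYC and MYCN had been switched on. The members were the 53 genes of a fixed list of symbols, matched to 53 of the 63677 gene rows of the count table, and no symbol needed a choice between IDs. In the DOX group, cells that stably carried Cas9 received doxycycline for 72 hours, which switched on the guides; the series text names MYC and MYCN as targets, the treatment text only MYC and the group's genotype label only MYCN. In the DMSO group, the same Cas9 cells received the solvent DMSO for 72 hours and carry the genotype label control. Each group held 3 libraries, named here by the number in the count columns: DOX 12, 24 and 36, and DMSO 11, 23 and 35. Whether replicates were grown separately, and whether the line was a single clone, is not given, so every p-value here covers library-to-library spread only, and that may be technical. No cells given doxycycline without guides were analysed here, so the drug and the guides cannot be told apart.

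Interferons are secreted warning signals. Type I interferons act through the receptor chains IFNAR1 and IFNAR2 and the kinases JAK1 and TYK2, which activate factors such as STAT2; these join IRF9 and bind the interferon-stimulated response element (ISRE) in front of their target genes. Interferon gamma acts through JAK1 and JAK2 and genes that carry a gamma-activated site (GAS), and IRF1 is a direct target of it that then switches on further genes. The products sense foreign RNA, block viral entry, copying and release, tag proteins with the ubiquitin-like ISG15, or damp the signal again. Many of them keep a basal level in lymphoid cells without added interferon.

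The libraries held 28602145 to 29204148 counts, and 51 of the 53 members passed the filter on low counts. The 12 T-lineage markers were all at 1 CPM or more (CPM is a gene's count relative to its library's total, adjusted with TMM factors), summing to 2356 to 2456 CPM in DOX and 2386 to 2621 CPM in DMSO, while the 4 myeloid markers summed to 1.35 to 1.53 CPM in DOX and 0.710 to 1.32 CPM in DMSO. The 4 B-cell markers summed to 3.05 to 4.17 CPM in DOX and 2.64 to 3.56 CPM in DMSO, the 3 NK-cell markers to 36.6 to 39.2 CPM in DOX and 37.8 to 47.3 CPM in DMSO, and the 4 stromal and epithelial markers to 9.46 to 10.4 CPM in DOX and 2.87 to 7.11 CPM in DMSO; the part of such cells or genes in the results was not tested. MYCN stood at 46.2, 50.0 and 53.7 CPM in the DOX libraries, against 76.8, 109.5 and 86.9 CPM in DMSO 11, 23 and 35, with a log2 fold change of -0.87 ± 0.13 (SE), and MYC at -0.30 ± 0.12; edgeR's quasi-likelihood test gave Benjamini-Hochberg adjusted p-values of 0.0726 and 0.176, and DESeq2 called MYCN (adjusted p = 1.08e-05) and not MYC (0.159). For the 51 members as for other genes, DMSO 11 was unlike the rest of its group. Its root mean square log2 distance over the members was 0.56 from DMSO 23 and 0.52 from DMSO 35, while it was only 0.26 to 0.34 from DOX libraries. DMSO 23 and DMSO 35 lay 0.30 apart and the DOX libraries 0.13 to 0.16 apart. Values are therefore given with and without DMSO 11.

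Fold changes of the interferon response genes were split between both signs. As these are bulk samples, fewer cells of a type and less RNA per cell cannot be told apart. Of the 51 tested members, 26 had a log2 fold change (DOX over DMSO) above 0 and 25 below 0, with a median of 0.03, beside a median of -0.0031 over all 15949 genes tested. EdgeR's quasi-likelihood test called 0 of 51 members at an adjusted p of 0.05, where it called 0.0313% of all genes (0.0125% higher and 0.0188% lower). An unadjusted edgeR p under 0.05 was found for 13 members, 6 higher and 7 lower (25.5%, against 26.0% of all genes, 11.2% higher and 14.8% lower). Limma voom, which called the same shares of all genes, also called 0 members. With voom, 14 members were under an unadjusted 0.05, and the share of all genes there was not computed. DESeq2 called 5 of the 50 members with an adjusted p, which is 10.0% beside 9.81% of all genes (3.37% higher and 6.44% lower): IRF1, IFITM1, PLSCR1 and SP110 lower and SAMD9 higher. The authors' deposited table called 5 of 50 members, where it called 9.57% of all genes (2.96% higher and 6.61% lower), and they were those 5 genes in the same directions. In 9 members every DOX library lay above every DMSO library and in 9 below, together 35.3% beside 30.2% of all genes tested (14.6% above and 15.6% below). These shares lay near the background, so they do not set the list apart. GBP2, counted among the members above, passed the filter on low counts only through its DOX libraries.

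The count of calls turned on single libraries and on the filter. With no filter on low counts, edgeR called 9 of 53 members: EIF2AK2, IFI44 and SAMD9 higher and IRF1, RSAD2, SP110, IFITM2, IFITM1 and PLSCR1 lower. It called 5.56% of all genes there (1.94% higher and 3.62% lower), but over 31682 genes with any count, against 15949 with the filter. As 51 of the 53 members passed the filter, the member share and this share cannot be compared directly. Without DMSO 11, edgeR called 32 of 52 members (61.5%), 16 higher and 16 lower, in a fit that called 49.4% of all genes (23.7% higher and 25.7% lower), and DESeq2 called 31 of 52, where it called 41.5% of all genes. With any of the other 5 libraries left out, edgeR called 0 members, and DESeq2 called 2, IRF1 and IFITM1, each time. It then called 0.690% of all genes without DOX 12, 1.23% without DOX 24, 1.01% without DOX 36, 1.32% without DMSO 23 and 1.40% without DMSO 35, and edgeR called 0 genes in each of these fits. In 36 of the 51 members (70.6%, beside 58.8% of all genes tested) DMSO 11 was the DMSO library nearest the DOX mean. The median absolute log2 difference of the members was 0.12 between the DOX mean and DMSO 11, against 0.37 between the DOX mean and the mean of DMSO 23 and DMSO 35. In 22 members these differences had opposite signs. The same medians and the share of opposite signs over all genes were not computed, so these values do not set the members apart. The part of DMSO 11 in each result was otherwise not tested.

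**Figure D1:**
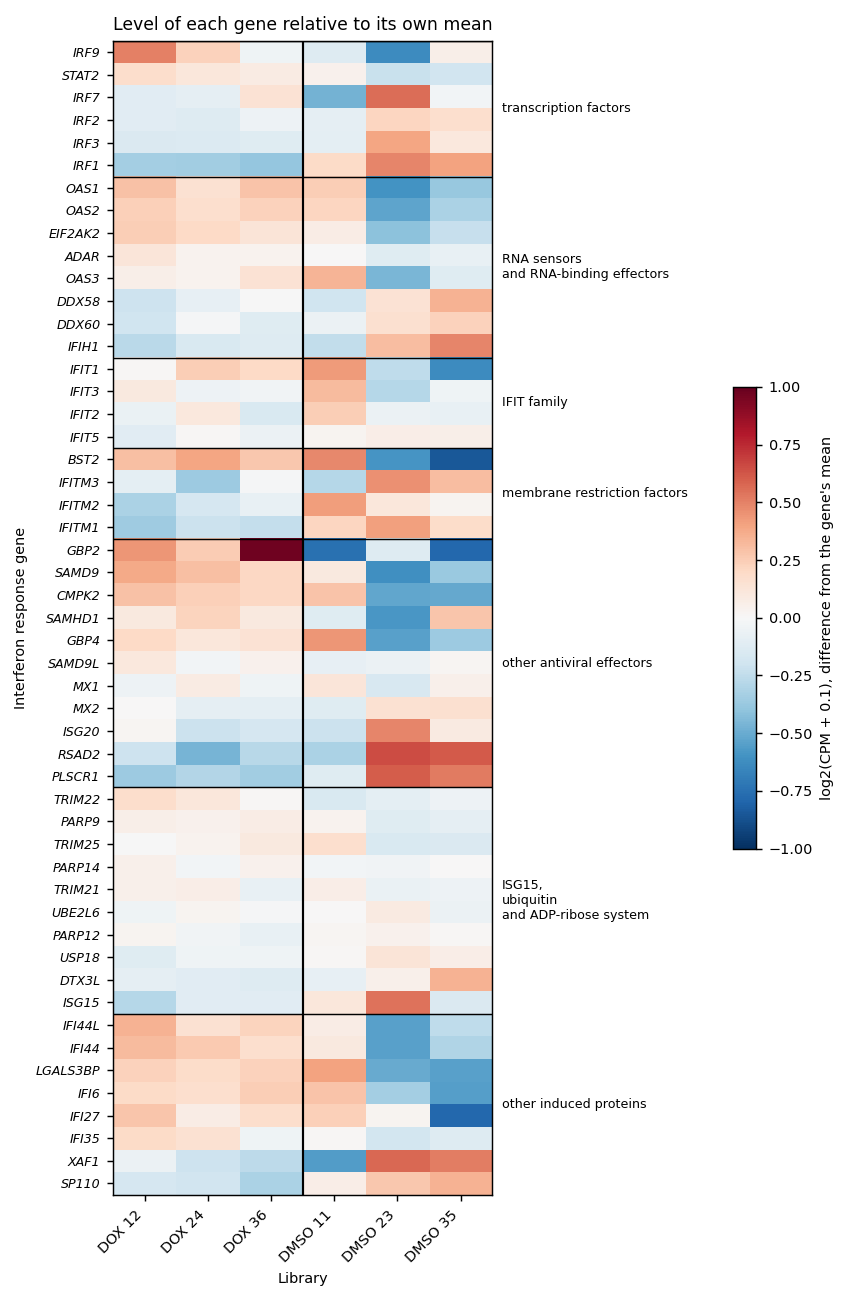
Heat map of the 51 tested interferon response genes (rows, grouped by role) in the 6 libraries (columns, DOX left of DMSO); colour is log2(CPM + 0.1) minus the gene's mean over the libraries, cut at 1 either way. Rows such as IRF1 and IFITM1 separate DOX from every DMSO library, while rows such as BST2 and XAF1 separate DMSO 23 and DMSO 35 from the other 4 libraries.

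Among the transcription factors, IRF1, which is induced by interferon gamma and drives antigen presentation and antiviral genes, was the member with the lowest log2 fold change. IRF1 stood at 83.6, 83.0 and 80.8 CPM in DOX 12, 24 and 36, against 121, 149 and 140.1 CPM in DMSO 11, 23 and 35. The groups did not overlap, and DMSO 11 lay nearer the other DMSO libraries than the DOX libraries. IRF1 averaged 82.5 ± 1.46 CPM in DOX and 136 ± 14.4 CPM in DMSO (SD, n = 3 each). Its log2 fold change was -0.73 ± 0.09 (SE), with adjusted p-values of 0.0666 by edgeR and 1.83e-07 by DESeq2. Leaving out any 1 library moved the fold change only between -0.81 and -0.66. The two-sided exact permutation test over the 6 libraries gave p = 0.1, the smallest value that 3 against 3 allow; each member named below whose groups did not overlap also had that value.

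The other factors differed in direction. STAT2, an activator of the type I response, stood at 124, 119 and 116 CPM in the DOX libraries, against 113, 94.2 and 96.1 CPM in DMSO 11, 23 and 35, above all DMSO libraries, with a log2 fold change of 0.24 ± 0.09 and adjusted p-values of 0.159 by edgeR and 0.159 by DESeq2. IRF3, which carries the signal from RNA and DNA sensors to the interferon genes, stood at 59.1, 59.5 and 60.3 CPM in the DOX libraries, against 61.1, 86.2 and 70.3 CPM in DMSO 11, 23 and 35. Its DOX libraries lay below all DMSO libraries, but only by 0.03 on the log2 scale below DMSO 11, and neither test called it (edgeR adjusted p = 0.191). IRF9, the DNA-binding subunit that joins STAT2, was low, at 2.95, 2.42 and 1.98 CPM in the DOX libraries, against 1.86, 1.29 and 2.13 CPM in DMSO 11, 23 and 35, and the groups overlapped (log2 fold change 0.48 ± 0.24, edgeR adjusted p = 0.245, exact permutation p = 0.2). IRF2, which competes with IRF1 for its sites, and IRF7, which amplifies interferon production, had overlapping groups and log2 fold changes of -0.20 and -0.10. Without DMSO 11, edgeR called 1 of these 6 factors higher (STAT2, 0.33) and 3 lower (IRF1 at -0.81, IRF3 at -0.39 and IRF2 at -0.29), where 49.4% of all genes were called.

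The membrane restriction factors split as well. IFITM1, a small membrane protein that blocks fusion of entering viruses, stood at 107, 118 and 116 CPM in DOX 12, 24 and 36, against 159, 181 and 155 CPM in DMSO 11, 23 and 35. All DOX libraries were lower than all DMSO libraries, DMSO 11 included. Its log2 fold change was -0.54 ± 0.09 (SE), with adjusted p-values of 0.0770 by edgeR and 0.000189 by DESeq2, and it ran from -0.59 to -0.47 with 1 library left out. Its neighbour IFITM2 stood at 47.1, 52.1 and 55.8 CPM in the DOX libraries, against 78.5, 63.6 and 59.9 CPM in DMSO 11, 23 and 35. Here too no libraries overlapped, and DMSO 11 was the highest of all; neither test called the gene (log2 fold change -0.38 ± 0.12, edgeR adjusted p = 0.115, DESeq2 0.0681), and without DMSO 11 the fold change was -0.26. In GENCODE 29 transcripts, 27.5% of the 100-base stretches of IFITM1 and 18.2% of those of IFITM2 also occur in another gene, 264 of them shared by this pair, so the split of reads between them is uncertain. IFITM3, which guards the endosome, stayed below 2 CPM in every library and had overlapping groups (log2 fold change -0.37).

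BST2, or tetherin, which holds budding virus at the cell surface, behaved unlike the IFITM genes. It stood at 101, 108 and 99.2 CPM in DOX 12, 24 and 36, against 115, 54.6 and 45.6 CPM in DMSO 11, 23 and 35. DMSO 11 was the highest library of all, and DMSO 23 and DMSO 35 were the lowest. The log2 fold change was 0.52 ± 0.30 with all libraries, with adjusted p-values of 0.289 by edgeR and 0.225 by DESeq2, and 1.04 without DMSO 11, where edgeR called it (adjusted p = 3.07e-09).

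**Figure D2:**
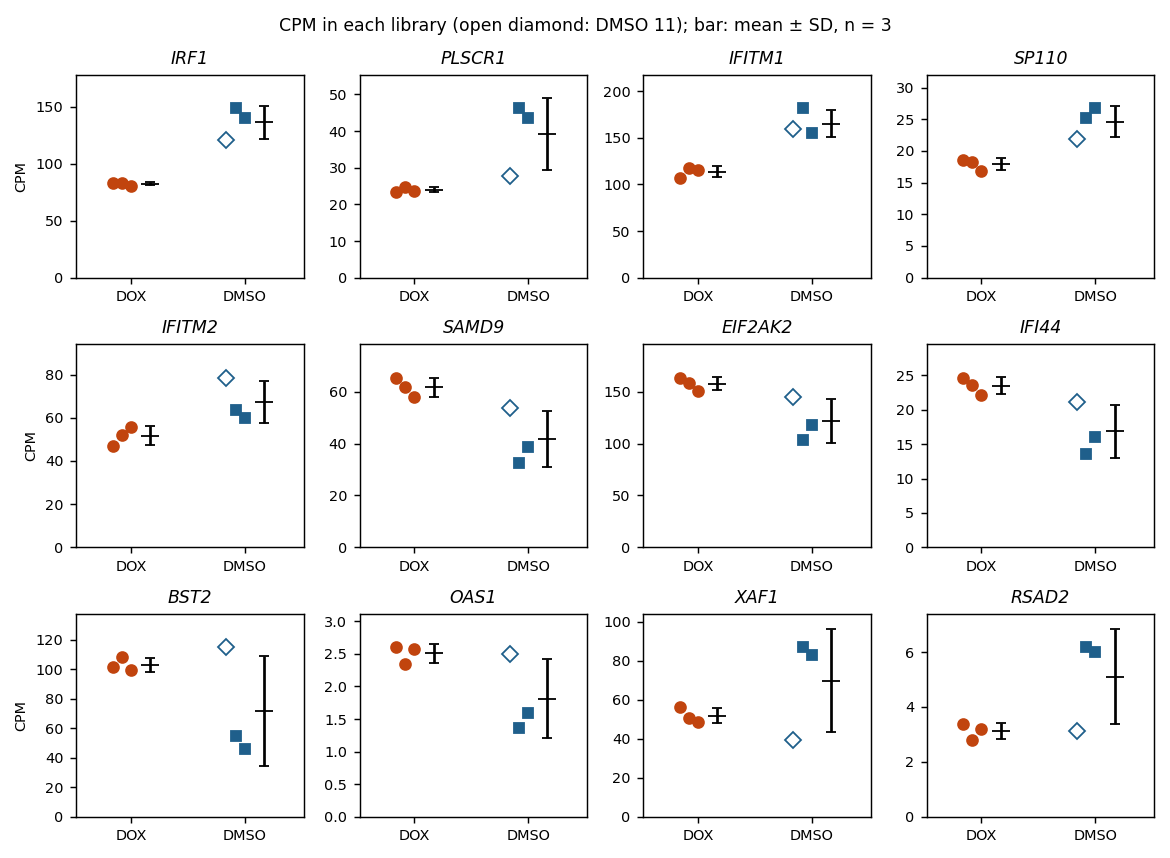
CPM of 12 interferon response genes in each library (y axes from 0), DOX left of DMSO; the open diamond is DMSO 11, and the bars are the mean ± SD of 3 libraries. DOX lies below every DMSO library for IRF1, PLSCR1, IFITM1, SP110 and IFITM2 and above for SAMD9, EIF2AK2 and IFI44, while DMSO 11 sits with or beyond the DOX libraries for BST2, OAS1, XAF1 and RSAD2.

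Of the 11 other antiviral effectors, DESeq2 called SAMD9 higher and PLSCR1 lower. SAMD9, an inhibitor of poxvirus replication that also restrains cell growth, stood at 65.3, 61.7 and 58.0 CPM in DOX 12, 24 and 36, against 53.7, 32.7 and 38.7 CPM in DMSO 11, 23 and 35. The DOX libraries lay above all DMSO libraries, with DMSO 11 the nearest. Its log2 fold change was 0.57 ± 0.17 (SE), with adjusted p-values of 0.107 by edgeR and 0.0327 by DESeq2. That DESeq2 call ended when any library other than DMSO 11 was left out, and the fold change ran from 0.41 without DMSO 23 to 0.79 without DMSO 11.

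PLSCR1, a phospholipid scramblase of the membrane that also acts against viral entry, stood at 23.5, 24.7 and 23.7 CPM in DOX 12, 24 and 36, against 27.9, 46.2 and 43.5 CPM in DMSO 11, 23 and 35. All DOX libraries were lower, and DMSO 11 lay much nearer to them than to DMSO 23 and DMSO 35. The log2 fold change was -0.71 ± 0.18 (SE; adjusted p = 0.0928 by edgeR and 0.00777 by DESeq2), and -0.90 without DMSO 11. The DESeq2 call ended when any other library was left out. RSAD2, or viperin, which makes a chain-terminating nucleotide that stops viral polymerases, stood at 3.36, 2.80 and 3.20 CPM in the DOX libraries, against 3.11, 6.17 and 6.02 CPM in DMSO 11, 23 and 35. DMSO 11 fell within the DOX range, so the groups overlapped (log2 fold change -0.71 ± 0.26, edgeR adjusted p = 0.144, DESeq2 0.0823, exact permutation p = 0.3), and without DMSO 11 the fold change was -0.96.

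GBP2, a guanylate-binding protein against intracellular pathogens, had the largest positive fold change, 1.45 ± 0.42, but rested on 13, 11 and 20 counts in DOX 12, 24 and 36, against 4, 8 and 4 counts in DMSO 11, 23 and 35. It passed the filter on low counts only through its DOX libraries, so its fold change and lack of overlap were partly set by the filter. DESeq2 gave GBP2 no adjusted p and edgeR one of 0.103. Its relative GBP4 stood at 82.9, 78.2 and 79.8 CPM in the DOX libraries, against 98.1, 49.5 and 56.1 CPM in DMSO 11, 23 and 35, with DMSO 11 the highest and DMSO 23 and 35 the lowest, and had a log2 fold change of 0.24, or 0.60 without DMSO 11. The dynamin-like GTPases MX1 and MX2, which trap viral nucleocapsids, had log2 fold changes of -0.01 and -0.13, the exonuclease ISG20 -0.27, the nucleotide phosphohydrolase SAMHD1, which starves viruses of DNA building blocks and stayed under 1 CPM in every library, 0.27, and SAMD9L 0.08; in each of these 5 the groups overlapped. Leaving out DMSO 11 gave edgeR calls for 4 of the 11 effectors higher and 4 lower, against 23.7% of all genes higher and 25.7% lower. GBP2 was among those higher.

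Of the 9 RNA sensors and RNA-binding effectors, neither edgeR nor DESeq2 called any with all libraries and the filter. EIF2AK2, the kinase PKR, which stops translation when it binds double-stranded RNA, stood at 163, 159 and 151 CPM in the DOX libraries, against 145, 104 and 118 CPM in DMSO 11, 23 and 35. The DOX libraries lay above all DMSO libraries, with a log2 fold change of 0.37 ± 0.12 and adjusted p-values of 0.128 by edgeR and 0.0822 by DESeq2. ADAR, which edits adenosines in double-stranded RNA, was the member with the most counts and stood at 852, 800.0 and 804 CPM in the DOX libraries, against 785, 719 and 743 CPM in DMSO 11, 23 and 35. It too lay above in every DOX library, by 0.13 ± 0.09 on the log2 scale (edgeR adjusted p = 0.386). The 2'-5'-oligoadenylate synthetases, which activate RNase L, had low to moderate levels. OAS1 stood at 2.60, 2.35 and 2.57 CPM in the DOX libraries, against 2.501, 1.36 and 1.59 CPM in DMSO 11, 23 and 35, so that DMSO 11 lay inside the DOX range, and its log2 fold change was 0.47 ± 0.24 (edgeR adjusted p = 0.253, exact permutation p = 0.2). OAS2 and OAS3 were at 0.39 and 0.12, and in OAS3 DMSO 11 was above every DOX library. The helicases that detect viral RNA were on the other side of 0: DDX58 (RIG-I) at -0.21, IFIH1 (MDA5) at -0.40 and DDX60 at -0.22, each with overlapping groups. With DMSO 11 left out, edgeR called EIF2AK2, OAS1, OAS2 and OAS3 higher and DDX58, IFIH1 and DDX60 lower, with log2 fold changes of 0.51, 0.77, 0.64, 0.36, -0.34, -0.59 and -0.31, in the fit that called 49.4% of all genes. OASL, an inactive relative of the synthetases, had at most 1 count in a library and was not tested.

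Among the 8 other induced proteins, DESeq2 called SP110, a nuclear body protein linked to resistance against intracellular bacteria. SP110 stood at 18.6, 18.3 and 16.8 CPM in DOX 12, 24 and 36, against 21.9, 25.2 and 26.7 CPM in DMSO 11, 23 and 35. Every DOX library was below every DMSO library. The log2 fold change was -0.46 ± 0.11 (SE; adjusted p = 0.0912 by edgeR and 0.0128 by DESeq2), and the DESeq2 call ended when any library other than DMSO 11 was left out. IFI44 stood at 24.6, 23.6 and 22.2 CPM in the DOX libraries, against 21.1, 13.6 and 16.0 CPM in DMSO 11, 23 and 35. Its neighbour IFI44L stood at 3.74, 3.26 and 3.41 CPM in the DOX libraries, against 3.07, 1.96 and 2.43 CPM in DMSO 11, 23 and 35. Both lay above in every DOX library, at 0.48 ± 0.16 and 0.48 ± 0.20, and neither passed edgeR or DESeq2 with all libraries and the filter (edgeR adjusted p = 0.125 and 0.172, DESeq2 0.0650 and 0.186). Without DMSO 11, edgeR called both, at 0.67 and 0.66.

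XAF1, which opposes an inhibitor of cell death, stood at 56.1, 50.6 and 48.7 CPM in the DOX libraries, against 39.4, 86.8 and 83.0 CPM in DMSO 11, 23 and 35. DMSO 11 was the lowest library of all and DMSO 23 and DMSO 35 the highest, so that the log2 difference of the DOX mean was 0.39 from DMSO 11 and, from the mean of DMSO 23 and DMSO 35, -0.71. Its log2 fold change over all libraries was -0.43 ± 0.26 (edgeR adjusted p = 0.306, exact permutation p = 0.4). The secreted glycoprotein LGALS3BP was highest in DMSO 11 and lowest in DMSO 23 and DMSO 35. It stood at 199.9, 193 and 199 CPM in the DOX libraries, against 225, 120.2 and 117 CPM in DMSO 11, 23 and 35. Its log2 fold change was 0.36 ± 0.23, or 0.74 without DMSO 11. IFI6, a mitochondrial protein that opposes cell death, was at 0.36, IFI35 at 0.21 and IFI27, with means below 2 CPM, at 0.31, all with overlapping groups. Of these 8 proteins, edgeR without DMSO 11 called 4 higher and 2 lower, while it called 23.7% of all genes higher and 25.7% lower.

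**Figure D3:**
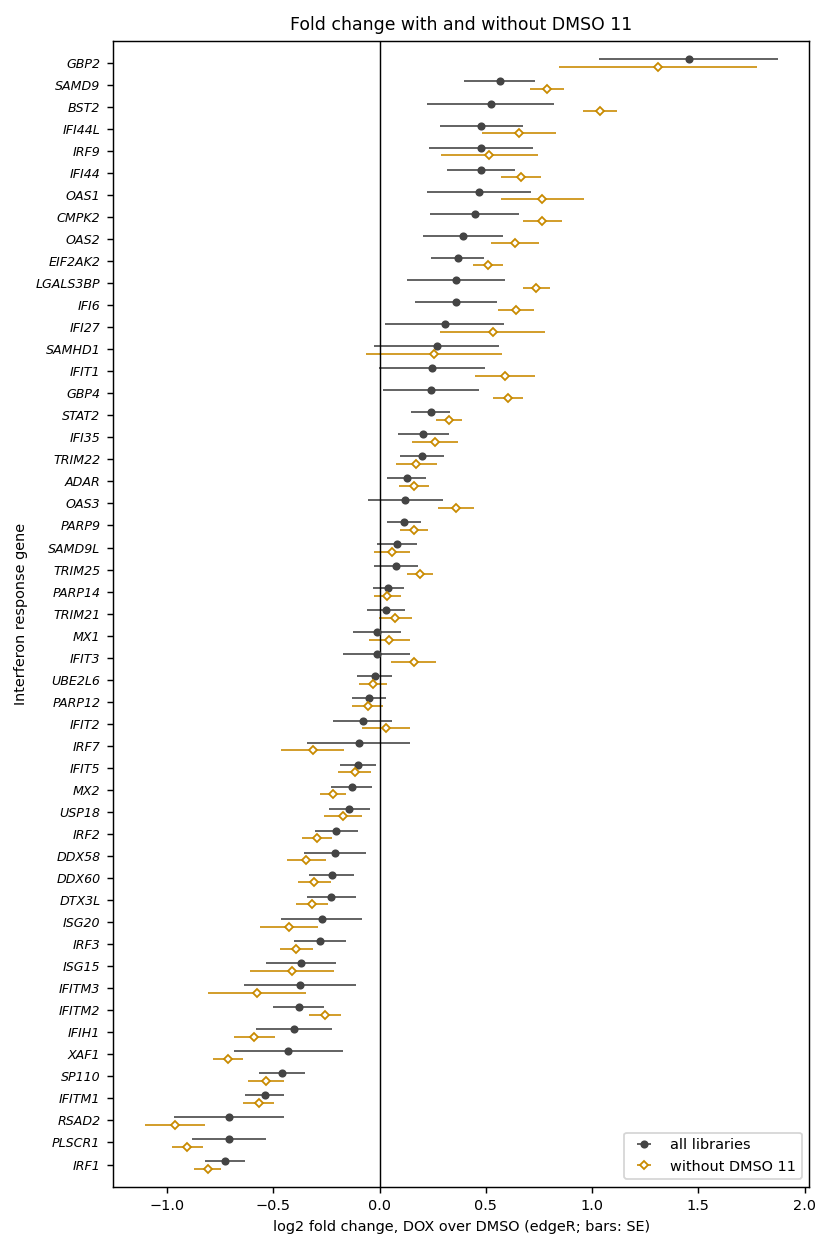
Log2 fold change (x axis, DOX over DMSO, edgeR; bars are the SE) of the 51 tested interferon response genes (y axis), with all 6 libraries (filled circles) and without DMSO 11 (open diamonds). With all libraries, IRF1 lies lowest at -0.73 and GBP2 highest at 1.45, and leaving out DMSO 11 moved BST2 to 1.04. GBP2 passed the filter on low counts only through its DOX libraries.

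The ISG15, ubiquitin and ADP-ribose group had 10 members with log2 fold changes between -0.37 and 0.20, and neither edgeR nor DESeq2 called any with all libraries. An unadjusted edgeR p under 0.05 was found for 0 of the 10, against 26.0% of all genes tested. ISG15 itself, the ubiquitin-like modifier, stood at 27.5, 31.0 and 31.0 CPM in the DOX libraries, against 36.3, 49.0 and 30.4 CPM in DMSO 11, 23 and 35, with DMSO 23 the highest library, and had the lowest fold change of the group, -0.37 ± 0.17 (edgeR adjusted p = 0.198). UBE2L6, the enzyme that passes ISG15 to its targets, stood at 197, 207 and 202 CPM in the DOX libraries, against 204, 217 and 195 CPM in DMSO 11, 23 and 35; its groups overlapped and its log2 fold change was -0.02 ± 0.08, which was above 0 with upper quartile scaling or without DMSO 23. USP18, which removes ISG15 and shuts off the type I receptor, was at -0.14 ± 0.10 and below all DMSO libraries in every DOX library. The ubiquitin ligases TRIM21, TRIM22 and TRIM25 were at 0.03, 0.20 and 0.08, and the ADP-ribosyltransferases PARP9, PARP12 and PARP14 at 0.11, -0.05 and 0.04. Leaving out DMSO 11, edgeR called TRIM25 higher (0.19) and DTX3L lower (-0.32), 2 of the 10 members, where it called 49.4% of all genes.

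The IFIT family, whose proteins hold on to foreign RNA ends, gave 0 calls by edgeR, DESeq2 or voom with all libraries. Of the 4 genes, 0 had an unadjusted edgeR p under 0.05, against 26.0% of all genes tested. IFIT1, IFIT2, IFIT3 and IFIT5 had log2 fold changes of 0.24 ± 0.25, -0.08 ± 0.14, -0.01 ± 0.16 and -0.10 ± 0.09. DMSO 11 was the highest of the 6 libraries for IFIT1, at 8.93 CPM, IFIT2 and IFIT3. IFIT1 was called higher by edgeR without it (0.59), and the DOX libraries of IFIT5 lay below all DMSO libraries. SOCS1, the feedback inhibitor of JAK kinases, had 4 to 13 counts in the DOX libraries and 5 to 11 counts in the DMSO libraries. With all libraries it did not pass the filter and was not tested. Without DMSO 11 it passed, with a log2 fold change of -0.28 (edgeR adjusted p = 0.654), a value that rests on few counts.

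Promoters of the 5 members that DESeq2 called are shown to set their sequence beside their different directions, with that of BST2, whose log2 fold change moved most among these 6 when DMSO 11 was left out. Each is the 250 bases before the RefSeq start site (GRCh38.p14, coordinates of that build, not of the authors' files). Capitals mark matches to an ISRE core (GAAA, any 2 bases, GAAA), a GAS (TTCNNNGAA) or the E-box that MYC family proteins bind (CACGTG), searched on both strands; overlapping matches run together.
IRF1 (chr5:132490774-132491023, minus strand): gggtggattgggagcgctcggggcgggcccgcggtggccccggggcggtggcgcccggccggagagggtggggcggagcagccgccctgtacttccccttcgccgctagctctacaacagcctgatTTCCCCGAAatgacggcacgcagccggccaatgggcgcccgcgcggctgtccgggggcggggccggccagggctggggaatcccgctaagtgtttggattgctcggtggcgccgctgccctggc
IFITM1 (chr11:313790-314039, plus strand): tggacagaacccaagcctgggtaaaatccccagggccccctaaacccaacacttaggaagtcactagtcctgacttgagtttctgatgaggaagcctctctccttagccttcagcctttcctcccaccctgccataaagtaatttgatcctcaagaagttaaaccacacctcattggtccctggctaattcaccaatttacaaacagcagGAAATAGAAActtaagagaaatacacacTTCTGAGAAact
PLSCR1 (chr3:146544608-146544857, minus strand): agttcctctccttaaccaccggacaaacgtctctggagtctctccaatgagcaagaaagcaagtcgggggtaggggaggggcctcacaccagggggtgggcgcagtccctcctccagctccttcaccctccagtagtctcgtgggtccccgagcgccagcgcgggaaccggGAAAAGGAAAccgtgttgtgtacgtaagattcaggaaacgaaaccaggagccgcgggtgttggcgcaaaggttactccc
SP110 (chr2:230225637-230225886, minus strand): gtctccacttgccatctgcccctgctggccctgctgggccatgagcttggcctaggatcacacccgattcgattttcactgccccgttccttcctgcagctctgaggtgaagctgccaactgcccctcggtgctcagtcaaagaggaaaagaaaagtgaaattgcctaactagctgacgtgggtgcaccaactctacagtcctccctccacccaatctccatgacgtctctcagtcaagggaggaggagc
SAMD9 (chr7:93117980-93118229, minus strand): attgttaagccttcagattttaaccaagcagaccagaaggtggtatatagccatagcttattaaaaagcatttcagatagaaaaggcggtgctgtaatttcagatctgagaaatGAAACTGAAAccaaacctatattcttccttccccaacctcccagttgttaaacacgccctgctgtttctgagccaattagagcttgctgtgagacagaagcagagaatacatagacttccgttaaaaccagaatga
BST2 (chr19:17405631-17405880, minus strand): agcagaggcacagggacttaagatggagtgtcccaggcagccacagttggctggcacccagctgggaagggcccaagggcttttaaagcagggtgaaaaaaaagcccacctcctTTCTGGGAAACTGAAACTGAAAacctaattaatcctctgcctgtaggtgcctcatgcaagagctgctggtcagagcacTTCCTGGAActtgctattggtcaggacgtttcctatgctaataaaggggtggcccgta

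The IRF1 stretch held 1 GAS match and no ISRE core, the IFITM1 stretch 1 of each, the PLSCR1 and SAMD9 stretches 1 ISRE core each, the SP110 stretch none of the motifs, and the BST2 stretch 2 overlapping ISRE cores and 2 GAS matches, 1 of them running into an ISRE core. None of these stretches held CACGTG. Of the 53 members, 42 had a RefSeq promoter sequence. An ISRE core was found in 21 of the 42 (50.0%), against 3.07% of 27305 RefSeq promoters of the same length, a GAS in 9 (21.4%, against 6.78%) and CACGTG in 5 (11.9%, against 6.49%). The ISRE core occurred in 3 of 7 promoters of members whose DOX libraries lay above all DMSO libraries, in 3 of 6 whose DOX libraries lay below, and in 14 of 28 with overlapping groups. In the same order, a GAS occurred in 0 of 7, 2 of 6 and 7 of 28 promoters, and CACGTG in 2 of 7, 0 of 6 and 3 of 28; these small counts were not tested. The members were chosen as interferon response genes, so the ISRE share is a description of the list and not a result of the treatment.

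Several members are neighbours on a chromosome, and neighbours did not always rank the libraries alike. CMPK2, a mitochondrial nucleotide kinase, and RSAD2 lie beside each other on chromosome 2 on opposite strands, with 14 exon bases in common. CMPK2 stood at 20.5, 19.8 and 19.3 CPM in the DOX libraries, against 20.4, 11.7 and 11.7 CPM in DMSO 11, 23 and 35. It was lowest in DMSO 23 and DMSO 35, where RSAD2, given above, was highest. The log2 ratio of CMPK2 to RSAD2 was 2.61, 2.82 and 2.59 in DOX 12, 24 and 36, against 2.71, 0.92 and 0.96 in DMSO 11, 23 and 35. DMSO 11 lay within the DOX range of this ratio. PARP9 and DTX3L, which form a complex and lie on opposite strands of chromosome 3 with 217 exon bases in common, also differed. PARP9 stood at 57.2, 56.7 and 58.1 CPM in the DOX libraries, against 56.6, 50.6 and 51.8 CPM in DMSO 11, 23 and 35, above all DMSO libraries in every DOX library. DTX3L stood at 121.8, 120.0 and 119 CPM in the DOX libraries, against 122.3, 134 and 165 CPM in DMSO 11, 23 and 35, below them. The log2 ratio of PARP9 to DTX3L was -1.09, -1.08 and -1.03 in DOX 12, 24 and 36, against -1.11, -1.41 and -1.67 in DMSO 11, 23 and 35. Its mean was higher in DOX by 0.33 and its groups did not overlap (exact permutation p = 0.1, the smallest possible, adjusted p = 0.5 over 20 pairs of neighbours). DMSO 11 lay much nearer the DOX libraries than DMSO 23 and DMSO 35 did.

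On chromosome 7, the log2 ratio of SAMD9 to its neighbour SAMD9L was 1.61, 1.66 and 1.499 in the DOX libraries, against 1.51, 0.77 and 0.94 in DMSO 11, 23 and 35 (exact permutation p = 0.2). IFI44 and IFI44L on chromosome 1 had a log2 ratio that differed between DOX and DMSO by 0.0006 (exact permutation p = 1). Over the 20 pairs in 9 clusters of neighbours, 4 had ratios that did not overlap between the groups: OAS1 to OAS3, OAS3 to OAS2, PARP9 to DTX3L and DTX3L to PARP14. Each of these 4 had an exact permutation p of 0.1 and an adjusted p of 0.5 over the 20 pairs. Some pairs share a gene, and the share among other pairs of genes was not computed, so the count does not set these pairs apart.

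**Figure D4:**
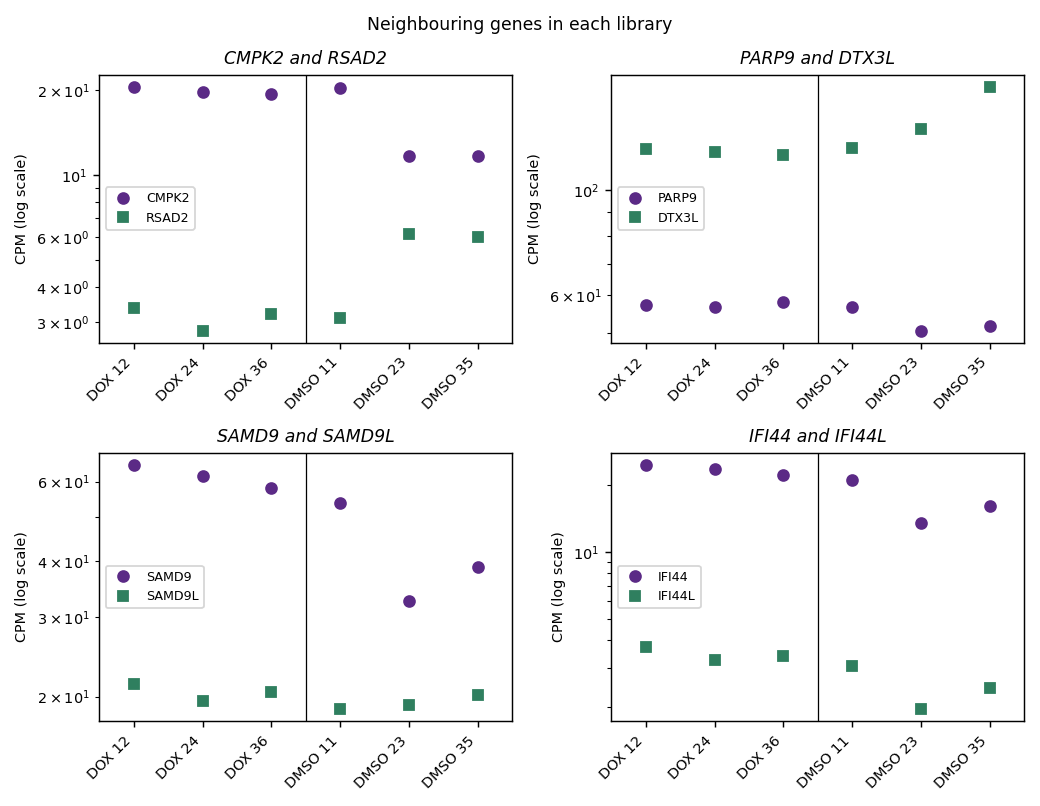
CPM (log axis) of 4 pairs of neighbouring interferon response genes in each library, DOX left of DMSO. CMPK2 and RSAD2 take opposite levels in DMSO 23 and DMSO 35, where CMPK2 is low and RSAD2 high, while IFI44 and IFI44L run in parallel.

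Per kilobase of exon (GENCODE 29, union of exons), IFITM1 was the most abundant member, with 105 CPM per kb in DOX and 153 CPM per kb in DMSO. Ranked by the mean over all 6 libraries, UBE2L6 followed with 92.0 and 93.5 CPM per kb in DOX and DMSO, and ADAR with 84.5 and 77.3 CPM per kb. BST2 came next, with 92.0 and 64.0 CPM per kb in DOX and DMSO, and in DOX alone it was level with UBE2L6 and above ADAR. The members together took 0.311% to 0.324% of all counts in the DOX libraries and 0.310% to 0.316% in the DMSO libraries. ADAR held 25.4% to 26.5% of those counts in DOX and 23.6% to 24.4% in DMSO.

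The pathway that drives these genes was followed in 53 further genes: ligands, receptors, kinases, STAT factors, sensors, adaptors and regulators. The 10 interferon genes among them were listed at 0 to 2 counts in each library and could not be tested, and 36 of the 53 genes passed the filter. EdgeR called 0 of 36 over all genes, with 3 higher and 5 lower at an unadjusted p under 0.05, where 11.2% of all genes were higher and 14.8% lower; limma voom called 0, and DESeq2 called 3 of 34 lower and 0 higher, where it called 6.44% of all genes lower. The median log2 fold change was -0.04. IRF5, a factor that drives inflammatory cytokine genes, stood at 5.34, 6.97 and 5.98 CPM in the DOX libraries, against 8.86, 10.1 and 9.03 CPM in DMSO 11, 23 and 35 (log2 fold change -0.61 ± 0.14, DESeq2 adjusted p = 0.0106). RNASEH2B, a subunit of the nuclease that removes RNA from DNA, stood at 99.6, 107 and 97.9 CPM in the DOX libraries, against 120.2, 216 and 209 CPM in DMSO 11, 23 and 35 (-0.84 ± 0.20, DESeq2 adjusted p = 0.00309). IRF2BP2, a corepressor that binds IRF2, stood at 125, 133 and 133 CPM in the DOX libraries, against 139.6, 310.1 and 263 CPM in DMSO 11, 23 and 35 (-0.87 ± 0.25, DESeq2 adjusted p = 0.0107). DESeq2 called 0 of the 34 without DOX 12, DOX 36, DMSO 23 or DMSO 35, and IRF5 and RNASEH2B without DOX 24. In IRF5 all 3 DMSO libraries lay close together, while in RNASEH2B and IRF2BP2 DMSO 11 lay near the DOX libraries. The receptor chains IFNAR1 and IFNAR2 were at 0.11 and 0.16, and IFNGR1 and IFNGR2 at -0.44 and 0.21, all with overlapping groups. With DMSO 11 left out, edgeR called 11 of the 36 genes higher and 10 lower (58.3%), in the fit that called 49.4% of all genes, 23.7% higher and 25.7% lower.

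Some member values carry a limit of read assignment, since the libraries were strand-specific but the strand setting of the counting was not given. In GENCODE 29, exons of IRF3 overlap BCL2L12 on the opposite strand over 19.3% of their bases, those of IRF1 overlap other genes over 28.0%, mainly C5orf56 on the opposite strand, and those of XAF1 overlap PRAL on the opposite strand over 38.3%. Exons of SP110 overlap other genes over 20.9%, mainly AC009950.1 on the opposite strand. IFITM1 and IFITM2 have 351 exon bases in common on the same strand, 32.5% and 22.7% of their bases. Exons of IRF9 overlap AL136295.5 on the same strand over 48.4% of their bases, and 39.1% of the 100-base stretches of IRF9 were also in transcripts of that overlapping gene. Of the 100-base stretches of USP18, 15.4% were also in USP41, whose exons do not overlap those of USP18.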

How the data were processed

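The authors deposited raw read counts per Ensembl gene for 6 libraries and a table of their own comparison. The submitters' processing notes list STAR 2.5.2a, featureCounts, DESeq2 1.12.4 and hg19 without saying what each did; annotation release and strand setting are not given in the sources used here. Per the file headers, the deposited comparison holds a mean normalised signal, log2 fold changes with SE, p-values and a test score. Its sign is that of DOX over DMSO for 99.2% of 14237 genes compared with the edgeR fit. Count columns show the group but no replicate number of the labels.

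The 92 spike-in rows, at 0 in every library, were left out. Genes were filtered with filterByExpr, scaled with TMM factors and tested over the whole table by robust quasi-likelihood in edgeR 4.0.16 under R 4.3.3 (Benjamini-Hochberg adjusted, threshold 0.05). The SE is the log2 fold change divided by the square root of F. Alternatives were DESeq2 1.42.0, voom from limma 3.58.1, other scalings, filters, thresholds, a non-robust fit and each library left out; DESeq2 with each library left out was added after the data were seen. Log2 CPM used a prior count of 2. The fits were tested on simulated data. Members and lists were chosen with earlier results of these data known. Named in full were members called by edgeR or DESeq2, the 6 with the largest fold change each way at a mean of at least 1 CPM, those without overlap and at least 0.3 on the log2 scale, and the 3 highest per kilobase. GENCODE 29 gave lengths and neighbours, matched by Ensembl ID for all 53 members; neighbours are at most 3 protein-coding genes apart. Values of CMPK2, DTX3L, GBP4, IRF3, ISG15, LGALS3BP, PARP9 and STAT2 were added by choice after they were seen. A gene of the pathway list is not reported here.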

Additional observations from a re-analysis of the deposited data

How the results depend on the processing

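The member count of 0 by edgeR was also 0 with voom, DESeq2 size factors, upper quartile factors, library totals, a 1 CPM filter (under which GBP2 and SAMHD1 were not tested), a non-robust fit and a threshold of 0.01. It was 5 with DESeq2, 9 without a filter on low counts (where edgeR called 5.56% of 31682 genes with any count) and 4 of 51 at a threshold of 0.1. The share of all genes called at 0.1 was not computed. For the pathway genes the count was 3 of 34 with DESeq2 and 2 of 48 without the filter, and for the other interferon-induced genes 4 of 33 and 5 of 39. DESeq2 called 9.81% of all genes. With each library left out in turn, edgeR's counts ran from 0 to 32, 0 to 21 and 0 to 24 for the 3 lists, with the highest without DMSO 11, and DESeq2's member count ran from 2 to 31. The cause of the difference between tests and filters was not tested. The members' median ran from -0.0013 to 0.06 over the planned settings, and no scaling moved the median of all genes by over 0.1. Of the 17 members named by rule, only UBE2L6 changed sign, to 0.00998 with upper quartile factors and to 0.0135 without DMSO 23, with a lowest value of -0.0618 when DMSO 35 was left out. No paired analysis was possible because the count columns carry none of the labels' replicate numbers. The numbers in the column names run consecutively across the groups, but no label says that they pair libraries, and no fit with them as a block was run. Members with few counts, such as OASL, SOCS1 and, in DMSO, GBP2, are limited by depth.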

Other observations

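A further 39 interferon-induced genes outside the list were followed in the same way. Of 34 that passed the filter, edgeR called 0, with 7 higher and 5 lower at an unadjusted p under 0.05 (over all genes tested, 11.2% were higher and 14.8% lower), limma voom called 0, and DESeq2 called 4 of 33, 2 higher and 2 lower, where it called 3.37% of all genes higher and 6.44% lower. ZC3HAV1, which binds CG-rich viral RNA for decay, stood at 134, 120.4 and 128 CPM in the DOX libraries, against 104, 67.1 and 69.5 CPM in DMSO 11, 23 and 35 (edgeR log2 fold change 0.67 ± 0.16, DESeq2 adjusted p = 0.00797). ZNFX1, a helicase that senses viral RNA, stood at 93.9, 91.1 and 89.8 CPM in the DOX libraries, against 78.6, 67.7 and 70.2 CPM in DMSO 11, 23 and 35 (0.35 ± 0.08, DESeq2 adjusted p = 0.0221). NUB1, which lowers the ubiquitin-like protein NEDD8, stood at 121, 128 and 119 CPM in the DOX libraries, against 139, 170.1 and 170.5 CPM in DMSO 11, 23 and 35 (-0.38 ± 0.10, DESeq2 adjusted p = 0.0239). NT5C3A, a nucleotidase, stood at 43.4, 43.0 and 40.9 CPM in the DOX libraries, against 42.9, 71.6 and 77.6 CPM in DMSO 11, 23 and 35 (-0.59 ± 0.19, DESeq2 adjusted p = 0.0431). In the first 3 of these genes the groups did not overlap, and in NT5C3A DMSO 11 lay within the DOX range. DESeq2's calls of all 4 ended when any library other than DMSO 11 was left out. Without DMSO 11, edgeR called 17 of the 34 higher and 7 lower, in a fit that called 23.7% of all genes higher and 25.7% lower.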
